A study of Sus scrofa with 14 samples.

Results

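Cell cycle genes are the genes a cell switches on to copy its DNA and divide, and 50 of them were followed here in every cell type of the pig mammary gland. The list of S phase and G2/M phase genes was drawn up with earlier results of these data known, and a member was taken where its symbol occurs among the genes of the deposited counts. This gave 45 of 50 members, 28 of G2/M phase and 17 of S phase, out of 30071 gene identifiers. CCNA2, AURKA, NUSAP1, MKI67 and RRM2 were not matched, and BUB1B and UBE2C took their symbol from the gene lists of the tissue sections, where the same identifiers carry it.

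The study followed the mammary gland of multiparous sows in their second breeding cycle through 5 stages, which were day 90 of gestation (G90), day 0 (L0) and day 20 (L20) of lactation, and 2 days (PI2) and 7 days (PI7) after natural involution. Nuclei were sequenced from snap-frozen tissue of 2 sows at each stage, so the 10 glands are 10 animals, all on a normal diet and with no treatment. In addition, 1 G90 section and 1 PI2 section were measured by spatial transcriptomics, and cells of 1 colostrum (L0) and 1 mature milk (L20) were sequenced. Neither the sections nor the milk had a second library, and a stage differs from the next by its animals as well as by time.

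A dividing cell first copies its DNA in S phase and then separates the copies in mitosis. The minichromosome maintenance (MCM) helicase, CDC45 and the GINS complex open the DNA, PCNA and DNA polymerase alpha copy it, and ribonucleotide reductase and thymidylate synthase supply the nucleotides. Cyclin B with CDK1 then starts mitosis, kinesins and TPX2 build the spindle, kinetochore proteins hold the chromosomes to it, the checkpoint kinases BUB1 and TTK delay the exit, and CDC20 and UBE2C end it by having cyclins degraded. In the mammary gland, epithelial cells are known to multiply during pregnancy and to turn to milk secretion around birth. In resting cells the genes of both phases are held down by the DREAM complex, which binds DNA elements named CHR (cell cycle genes homology region) and E2F, and the CHR often lies a short way downstream of CCAAT boxes in mitotic promoters.

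The 200 bases before the gene start were read for 44 of the 45 members from the RefSeq annotation of Sscrofa11.1. Printed are 4 examples that each hold a CHR or a CCAAT box, from mitotic members whose level at G90 is described below. Other such members are not printed, and the window of KIF15 among them held neither element. Capitals mark a CHR (TTTGAA or TTCGAA) or a CCAAT box (CCAAT), each read on both strands, so that TTCAAA and ATTGG are the same elements in reverse. The promoter of TOP2A, which holds both, is chr12:22001100-22001299 on the plus strand, that of KIF20B, which also holds both, is chr14:101512485-101512684 on the plus strand, that of CENPF, with CCAAT boxes only, is chr9:129012242-129012441 on the minus strand, and that of CDC20, with a CHR only, is chr6:167890588-167890787 on the minus strand.
TOP2A: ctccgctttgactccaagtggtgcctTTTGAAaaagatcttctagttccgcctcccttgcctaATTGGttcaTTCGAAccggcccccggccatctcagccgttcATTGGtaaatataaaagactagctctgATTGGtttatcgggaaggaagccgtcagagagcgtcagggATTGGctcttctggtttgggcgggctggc
KIF20B: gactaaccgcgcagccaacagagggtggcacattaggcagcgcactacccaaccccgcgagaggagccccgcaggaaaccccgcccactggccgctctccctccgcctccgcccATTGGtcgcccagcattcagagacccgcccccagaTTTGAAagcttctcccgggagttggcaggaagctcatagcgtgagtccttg
CENPF: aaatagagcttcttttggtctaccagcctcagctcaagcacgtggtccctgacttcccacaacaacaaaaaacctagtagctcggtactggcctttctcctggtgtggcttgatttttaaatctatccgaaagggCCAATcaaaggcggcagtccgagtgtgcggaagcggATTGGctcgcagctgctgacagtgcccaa
CDC20: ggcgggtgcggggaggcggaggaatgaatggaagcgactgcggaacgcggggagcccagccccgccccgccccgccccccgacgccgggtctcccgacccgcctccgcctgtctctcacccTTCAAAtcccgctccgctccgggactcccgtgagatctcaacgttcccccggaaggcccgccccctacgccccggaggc

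A CHR stood in the promoters of 25% of the 28 G2/M members and 6.25% of the 16 S phase members, against 10.4% of all 19531 promoters of protein-coding genes. CCAAT boxes were found in 50% and 37.5% of these members, against 27.7% of all. Both elements together occurred in 17.9% of the G2/M members and in 3.11% of all promoters. An E2F element (TTTGGCGC, TTTCGCGC, TTTCCCGC or TTTGCCGC, both strands) was present in 10.7% of the G2/M members and 18.8% of the S phase members, against 2.32% of all. A match of letters is a description of these windows and not a binding site, and the gene start is that of the annotation.

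Each nucleus was given a class from marker genes, none of which is a cell cycle gene. A nucleus needed UMIs (unique molecular identifiers, 1 for each captured RNA molecule) of at least 2 markers of a class and of more markers of that class than of any other. Luminal epithelial nuclei were the largest class with 74197 nuclei, followed by 11735 fibroblast, 10814 endothelial, 5862 macrophage, 3660 T and NK cell, 1527 myoepithelial, 566 mural, 561 adipocyte and 101 B cell nuclei. Of their markers, 13 of 15 luminal, 13 of 13 macrophage and 14 of 15 T and NK markers had their highest level in their own class. The same markers set the classes, so this is no independent check of them. Total UMIs ran from 18962138 to 53165191 per gland and the median from 1382 to 2496 UMIs per nucleus. Pairs of nuclear and milk libraries shared 52 to 284 barcodes, at most 1.52% of the smaller library. The sows of a stage differed in make-up, given here as percent of the nuclei counted in the shares below, sow 1 first. Fibroblasts made up 8.19% and 1.65% (G90), 1.77% and 0.399% (L0), 4.94% and 34.1% (L20), 10.9% and 1.42% (PI2), and 12.8% and 8.71% (PI7). Macrophages made up 3.36% and 0.774% (G90), 0.540% and 0.441% (L0), 2.46% and 19.6% (L20), 1.18% and 1.44% (PI2), and 8.78% and 5.74% (PI7).

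To count nuclei that use the cell cycle genes, each nucleus was thinned to 1000 UMIs and taken as positive where it held at least 3 different members. Nuclei below 1000 UMIs, 21.6% of all kept nuclei, were left out. Over all classes, 11.3% and 15.9% of the nuclei of the G90 glands were positive, 1.91% and 1.09% (L0), 6.24% and 3.74% (L20), 1.07% and 1.19% (PI2), and 4.36% and 0.910% (PI7). The G90 glands were the highest and the G90 mean of 13.6% ± 3.28 (SD, n = 2) exceeded the 2.56% ± 1.99 (SD, n = 8) of the other stages. An exact permutation test (two-sided) gave p = 0.0444, the smallest p that 45 splits can give. On leaving out any gland outside G90 the same exact permutation test gave p = 0.0556, since fewer glands allow fewer splits. Adjacent stages could not be tested by themselves in this way, since 2 glands against 2 cannot go below p = 0.333 in a permutation test.

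Luminal nuclei made up 12.7% (L20 sow 2) to 93.2% (G90 sow 2) of the nuclei counted in a gland, so the classes were next read one by one. In luminal nuclei the positive share was 12.4% and 16.3% (G90), 1.53% and 0.914% (L0), 5.25% and 2.67% (L20), 1.24% and 0.758% (PI2), and 2.93% and 0.682% (PI7). Both G90 glands lay above the other 8, whose mean was 2.00% ± 1.57 (SD, n = 8), with an exact permutation p = 0.0444 that adjustment over 7 classes took to 0.156. In endothelial nuclei the G90 glands, at 5.72% and 5.49%, stood only just above the next gland, L20 sow 1 at 5.36%, with the same p-values. Myoepithelial nuclei were positive in 5.03% (sow 1) and 31.0% (sow 2, only 9 positive nuclei) at G90. They reached at most 12.6% elsewhere, with an exact permutation p = 0.222. Positive myoepithelial nuclei of G90 held on average 2.10 (sow 1) and 1.67 (sow 2) markers of other classes, against 1.79 and 1.15 in the remaining ones. A doublet score in the top 5% of the gland was found in 20% and 0% of them, against 4.76% and 0%. The part of such nuclei in the result was not tested. Mural nuclei were positive in 8.70% of G90 sow 1, only 2 positive nuclei, and in at most 4.10% elsewhere.

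Macrophage nuclei showed another picture. Their positive share was 9.72% and 16.0% (G90), 13.5% and 18.8% (L0), 19.8% and 6.24% (L20), 4.31% and 14.9% (PI2), and 6.35% and 3.62% (PI7). The G90 glands lay inside the range of the others, and the difference of 1.93 percentage points had p = 0.667 (exact permutation test). The L0 values rest on 52 and 32 nuclei, and the exact binomial interval of L0 sow 2 runs from 7.21% to 36.4%. T and NK nuclei were positive in 13% and 17.2% (G90) and in 0% (PI7 sow 2, 0 of 189 nuclei, which allows a share of up to 1.59% if a count of 0 is taken to allow 3) to 13% (PI2 sow 2) of nuclei elsewhere, with p = 0.111 (exact permutation test, 36 splits, since L20 sow 1 had fewer than 20 such nuclei). Fibroblasts reached 7.54% and 5.26% (G90) and 8.03% in L20 sow 1. Among positive fibroblasts of G90, 13.2% (sow 1) and 35.7% (sow 2) had a doublet score in the top 5% of their gland, against 5.69% and 11.5% of the remaining fibroblasts, and in sow 2 they held on average 3.07 markers of other classes against 1.73, and the part of such nuclei in the result was not tested. Adipocytes were positive in 1.19% of 421 nuclei of L20 sow 2 (5 nuclei) and in 4.55% of 22 nuclei of PI7 sow 1 (1 nucleus), the only glands with enough of them. Of the 5 in L20 sow 2, 40% had a doublet score in the top 5%, against 8.41% of the remaining adipocytes. The part of such nuclei in these shares was not tested.

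**Figure D1:**
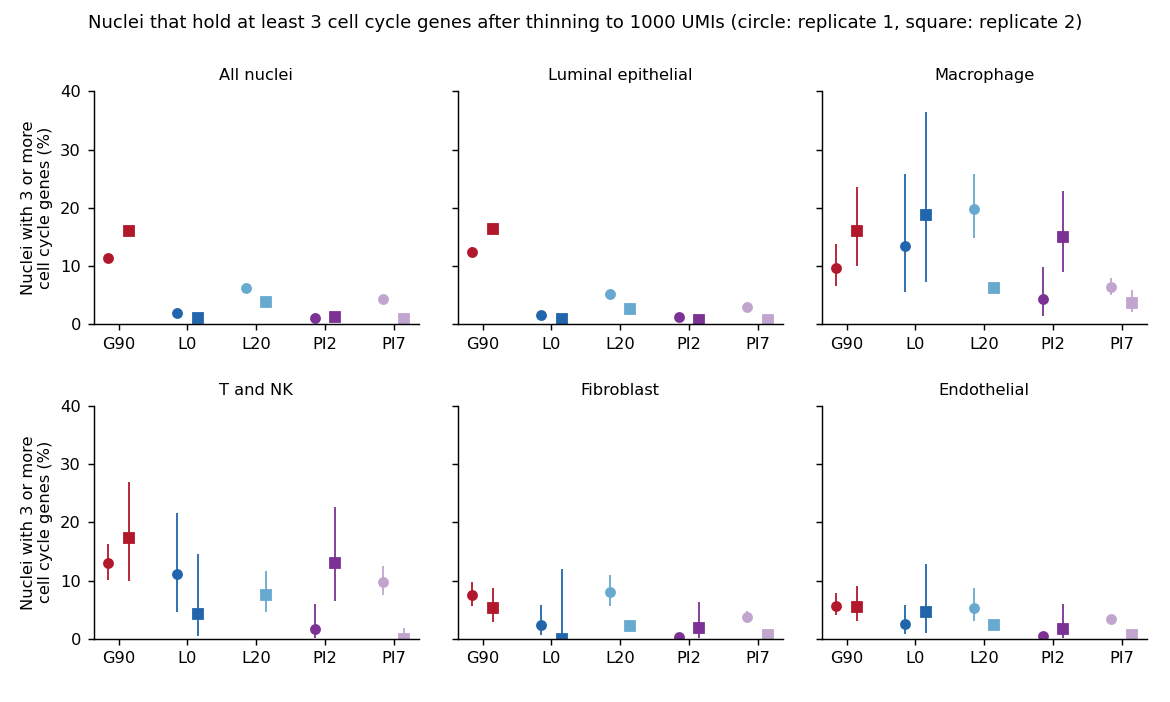
Percent of nuclei, thinned to 1000 UMIs, that held at least 3 cell cycle genes (y axis), by stage and class, with 1 point for each gland that had at least 20 nuclei of the class (circle for sow 1, square for sow 2) and its 95% exact binomial interval. Luminal nuclei of the 2 G90 glands, at 12.4% and 16.3%, stand above the other 8, while macrophage nuclei range from 3.62% to 19.8% with the G90 glands among the rest.

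Within the same glands, macrophage nuclei were positive more often than luminal ones by 6.85 percentage points ± 7.09 (SD of the difference, n = 10), higher in 8 of 10 glands, with an exact sign-change permutation p = 0.00977 and an adjusted p of 0.0469 over 6 classes. In both G90 glands the luminal share was the higher of the pair. T and NK nuclei exceeded luminal nuclei by 4.25 points ± 4.52 (SD, n = 9) in 8 of 9 glands, with an exact permutation p = 0.0156 and an adjusted p of 0.0469. Neither difference passed the threshold where at least 5 members were asked for (3.47 points, adjusted exact permutation p = 0.152, and 0.904 points, 0.535), with a stricter gate (0.117 for both) or with a stricter filter on nuclei (0.105 and 0.176). On leaving out each gland the macrophage call was lost in 7 of 10 cases, all but those without G90 sow 1, G90 sow 2 or PI7 sow 2, and the T and NK call in 9 of 10, all but that without PI7 sow 2. Both differences remained positive, and the adjusted exact permutation p ran from 0.0469 to 0.0938. The T and NK call was also lost at 2000 UMIs (0.104) and with the top doublet scores removed (0.0703). Without thinning the T and NK difference turned to −2.45 points, and the macrophage one came to 2.21 points (adjusted exact permutation p = 0.461). Macrophage nuclei with at least 3 members held on average 0.701 to 2.25 markers of other classes in a gland, against 0.619 to 1.51 in the remaining macrophage nuclei, and the part of such nuclei in the result was not tested.

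For the genes themselves, the nuclei of a class were added up to 1 count for each gland, given as CPM (UMIs per 1000000 UMIs of that class and gland), and G90 was compared with the mean of the other 4 stages by edgeR's quasi-likelihood test over all genes. In such sums, fewer dividing cells and less RNA per dividing cell cannot be told apart. A gene was called at an adjusted p (Benjamini-Hochberg) under 0.05 with an absolute log2 fold change over 1. Over all nuclei, 9 of 45 members were called higher at G90 and 0 lower, where 0.26% of all 22695 genes tested were called higher and 0.00441% lower. In luminal nuclei 19 of 45 members rose and 0 fell, where 0.646% of 20264 genes rose and 0.118% fell. All 45 had a positive fold change there, with a median log2 of 2.21, against 0.00 for all genes tested. The 9 members called over all nuclei were all among the 19. DESeq2 called 23 members over all nuclei and 34 in luminal nuclei, where it called 1.13% and 2.08% of all genes higher. Without its filter on low counts, edgeR called 21 and 30, where 0.697% and 1.54% of all genes were called higher.

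The number of luminal calls depended on single glands. Without G90 sow 2 no member was called in luminal nuclei, 24 of 45 had an unadjusted p under 0.05, and the median log2 fold change was 1.66. Without L0 sow 2, 9 members were called with a median of 2.15, and without G90 sow 1, 15 with a median of 2.54. Over all nuclei, calls fell to 0 without G90 sow 2, either L0 gland or either PI7 gland and to 1 without PI2 sow 2, while the median log2 fold change stayed between 1.32 and 2.31.

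Kinetochore and checkpoint genes rose in 5 of 7 cases in luminal nuclei. CENPF, a large kinetochore protein that accumulates in G2, was at 128 and 312 CPM (G90), 17.7 and 5.42 (L0), 39.4 and 17.1 (L20), 6.84 and 9.73 (PI2), and 14.1 and 5.31 (PI7). Both G90 glands lay far above the rest, with a log2 fold change of 4.13 (SE 0.53, edgeR adjusted p = 0.0118), the greatest of the 45. BUB1B, which encodes the checkpoint protein BUBR1, was at 60.6 and 109 CPM (G90), 9.83 and 5.96 (L0), 26.8 and 12.5 (L20), 7.24 and 4.77 (PI2), and 10.1 and 5.31 (PI7), a log2 fold change of 3.20 (SE 0.43, edgeR adjusted p = 0.0118). The highest gland outside G90 was again L20 sow 1. BUB1, TTK and NDC80, the latter a part of the complex that grips microtubules, rose by log2 fold changes of 2.79, 3.21 and 2.64. NUF2, the partner of NDC80, had a log2 value of 1.64 and was not called.

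CENPE, the kinetochore motor that moves chromosomes to the spindle equator, was at 156 and 480 CPM (G90), but also at 133 in L0 sow 2 and 112 in PI7 sow 1, with 30.2 in L0 sow 1, 45.2 and 17.9 (L20), 54.8 and 24.6 (PI2), and 39.7 in PI7 sow 2. Its log2 fold change of 2.64 (SE 0.61, edgeR adjusted p = 0.0910) was not called. Its highest glands outside G90 were thus at L0 and PI7, whereas CENPF, BUB1, BUB1B and NDC80 had theirs at L20 sow 1.

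Of the spindle genes 6 of 7 rose. KIF20B, a kinesin of late mitosis, was at 73.0 and 164 CPM (G90), 24.0 and 16.9 (L0), 14.3 and 30.6 (L20), 21.8 and 15.2 (PI2), and 43.5 and 17.1 (PI7), a log2 fold change of 2.47 (SE 0.40, edgeR adjusted p = 0.0233). KIF15, a kinesin that helps hold the spindle poles apart, was at 67.8 and 116 (G90), 10.8 and 8.37 (L0), 24.3 and 14.1 (L20), 9.39 and 5.63 (PI2), and 12.7 and 7.33 (PI7), a log2 fold change of 3.08 (SE 0.39, edgeR adjusted p = 0.0118). The G90 glands did not overlap with the others in either gene. HMMR, a spindle protein known also as a hyaluronan receptor, was at 50.3 and 121 (G90), 14.3 and 5.25 (L0), 21.4 and 13.3 (L20), 9.50 and 3.64 (PI2), and 10.9 and 4.56 (PI7), a log2 fold change of 3.19 (SE 0.50, edgeR adjusted p = 0.0201). TPX2, ASPM and KIF11, which gather and push spindle microtubules, rose by 3.68, 3.59 and 3.39 on the log2 scale. KIF23, a motor of the midzone, missed the threshold with 2.30 (edgeR adjusted p = 0.0683).

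TOP2A, the topoisomerase that untangles sister chromosomes, was at 91.5 and 184 CPM (G90), 14.5 and 3.83 (L0), 22.2 and 12 (L20), 6.32 and 4.10 (PI2), and 11.9 and 2.32 (PI7). Its log2 fold change was 4.0 (SE 0.55, edgeR adjusted p = 0.0118), with no overlap between G90 and the rest. CDCA8, a subunit of the chromosomal passenger complex, rose by 2.81, whereas BIRC5 (survivin), another subunit, was at 26.5 and 29.5 (G90), 7.08 and 6.68 (L0), 16.1 and 3.79 (L20), 13.9 and 2.71 (PI2), and 7.77 and 4.56 (PI7), a log2 value of 1.80 (SE 0.59, edgeR adjusted p = 0.255). AURKB, the kinase of the same complex, was at 24.4 and 21.2 (G90), 7.27 and 4.21 (L0), 24.9 and 12 (L20), 21.1 and 5.23 (PI2), and 13.7 and 23.8 (PI7). Its groups overlapped, with a log2 value of 0.75 (edgeR adjusted p = 0.734).

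Among the other mitotic kinases and cyclins, CCNB1 and CCNB2, the B cyclins, rose by 3.37 and 2.36 on the log2 scale, and PLK1 had 1.5 without a call. CDK1, their kinase, was at 32.2 and 32.0 CPM (G90), 11.9 and 11.05 (L0), 20.1 and 22.6 (L20), 5.79 and 7.81 (PI2), and 17.7 and 7.03 (PI7), a log2 value of 1.38 (SE 0.36, edgeR adjusted p = 0.136). The G90 glands were the highest for CDK1, but the L20 glands came close. CDC20, the activator of the anaphase-promoting complex, was at 15.2 and 28.8 (G90), 3.03 and 0.492 (L0), 8.56 and 1.46 (L20), 1.97 and 0.662 (PI2), and 1.16 and 0.898 (PI7), a log2 fold change of 3.54 (SE 0.68, edgeR adjusted p = 0.0452). UBE2C, the enzyme that loads ubiquitin for that complex, was at 9.27 and 11.2 (G90), 1.73 and 0.492 (L0), 7.63 and 1.02 (L20), 1.39 and 1.32 (PI2), and 2.96 and 0.973 (PI7), a log2 value of 2.36 that was not called (edgeR adjusted p = 0.171). CDCA3 was not called either.

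In cytokinesis, the last cut between daughter cells, 2 of 3 members rose. DIAPH3, a formin that nucleates actin filaments, was at 124 and 139 CPM (G90), 23.2 and 9.74 (L0), 61.0 and 45.6 (L20), 14.1 and 7.48 (PI2), and 25.9 and 5.54 (PI7), a log2 fold change of 2.72 (SE 0.46, edgeR adjusted p = 0.0271). ANLN, which anchors the contractile ring, rose by 2.21. ECT2, the activator of the small GTPase RhoA at the cleavage site, was at 41.1 and 52.2 (G90), 18.8 and 16.0 (L0), 24.7 and 24.1 (L20), 15 and 18.5 (PI2), and 22.4 and 9.35 (PI7), a log2 value of 1.33 that was not called. Both G90 glands lay above the rest for DIAPH3 and for ECT2.

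Of the 17 S phase members, 1 was called in luminal nuclei. None of the 11 genes of replication origins and forks and neither gene of nucleotide supply was called there by edgeR, although all had a positive log2 value, between 0.40 (GINS2) and 1.98 (CLSPN). CLSPN, MCM6, CDC6, MCM4, MCM2, PCLAF and TYMS had an unadjusted p under 0.05. POLA1, the catalytic subunit of DNA polymerase alpha, was at 99.9 and 78.0 CPM (G90), 46.3 and 51.9 (L0), 40.9 and 117 (L20), 56.7 and 54.4 (PI2), and 80.4 and 50.5 (PI7). Its groups overlapped, with the highest level in L20 sow 2 and a log2 value of 0.49. CLSPN, which signals stalled forks to the checkpoint, was at 34.2 and 64.8 (G90), 19.8 and 13.7 (L0), 15.1 and 14.0 (L20), 8.69 and 11.9 (PI2), and 13 and 7.48 (PI7), and lay just outside the threshold (SE 0.39, edgeR adjusted p = 0.0514). CDC45, the helicase cofactor, was at 33.4 and 34.8 (G90), 19.7 and 14.9 (L0), 53.6 and 10.9 (L20), 18.3 and 26.0 (PI2), and 16.5 and 16.2 (PI7), so that L20 sow 1 exceeded both G90 glands.

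RRM1, the large subunit of ribonucleotide reductase, ranged over the glands from 68.4 (L0 sow 2) to 148 CPM (G90 sow 1), with 128 in G90 sow 2, 69.1 in L0 sow 1, 121 and 74.7 (L20), 111 and 91.9 (PI2), and 99.5 and 112 (PI7). TYMS, thymidylate synthase, was at 12.7 and 20.8 (G90), 3.42 and 6.46 (L0), 11.3 and 7.15 (L20), 16.1 and 5.03 (PI2), and 5.68 and 5.39 (PI7), with overlap between the groups. Their log2 values were 0.49 and 1.21.

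Of the S phase regulators, E2F8, a repressor of the E2F family that is itself an E2F target, rose by 3.32 (SE 0.52, edgeR adjusted p = 0.0193), from 0.602 to 8.13 CPM outside G90 to 18.8 and 26.1 (G90). UHRF1, which keeps DNA methylation through replication, was at 22.8 and 19.8 (G90), 3.77 and 3.01 (L0), 14.3 and 9.63 (L20), 3.42 and 5.56 (PI2), and 6.78 and 1.87 (PI7), a log2 value of 1.94 (edgeR adjusted p = 0.0883). BRIP1, a repair helicase, was at 28.0 and 50.5 (G90), 24.6 and 27.9 (L0), 12.1 and 14.7 (L20), 15.8 and 9.60 (PI2), and 14.4 and 12.1 (PI7), so that L0 sow 2 all but reached G90 sow 1. EXO1, a repair nuclease, had a log2 value of 2.44 without a call.

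**Figure D2:**
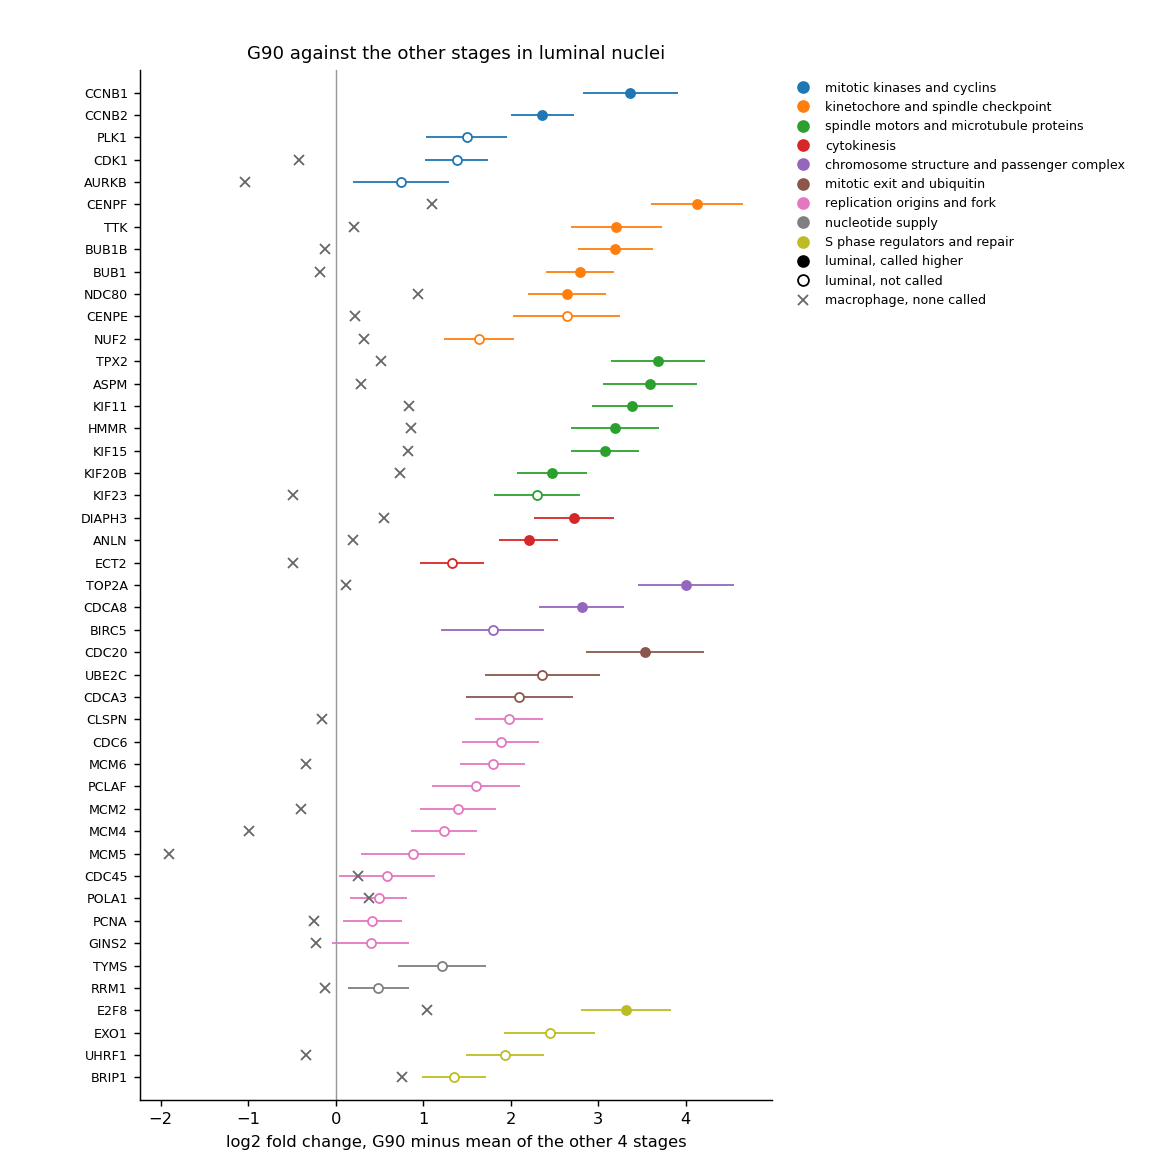
Log2 fold change of each cell cycle gene, G90 minus the mean of the other 4 stages (x axis), in luminal nuclei (circles with standard errors, filled where called, coloured by role) and in macrophage nuclei (crosses, where tested). Luminal values are positive for all 45 members and reach 4.13 for CENPF, while macrophage values lie around a median of 0.19.

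Cell cycle genes outside the list were counted in luminal nuclei in the same way. Of the other genes of G2/M phase 12 of 52 tested rose at G90, and of the other S phase genes 1 of 42, DTL, which marks proteins for removal in S phase (log2 fold change 2.09). The 5 with the smallest p were SGO1, the guardian of sister cohesion, CKAP2, KIF4A, DLGAP5 and KIF14, proteins of spindle or chromosomes, with log2 fold changes of 3.75, 3.54, 3.17, 3.11 and 3.57. No gene among 10 G1 cyclins, CDKs and partners, 11 cell cycle inhibitors or 15 E2F and MuvB regulators passed the threshold in edgeR, and their median log2 values were 0.01, −0.89 and 0.51.

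Between adjacent stages, no member was called by edgeR in any class, where at most 0.0488% of all genes (T and NK nuclei, lower from L0 to L20) and 0.0131% in myoepithelial nuclei were called in 1 direction. From G90 to L0 in luminal nuclei the median log2 difference of the members was −2.25, all 45 were negative and 32 had an unadjusted p under 0.05, as had 10.8% of all genes, while 0% of all genes were called lower and 0.00493% higher. DESeq2 called 26 of the 45 lower at L0, against 1.4% of all genes, and edgeR on the 4 glands of these stages alone called 28, against 2.03%. From L0 to L20 the median in luminal nuclei was 0.57 with 6 members at an unadjusted p under 0.05, from L20 to PI2 it was −1.23 with 9, and from PI2 to PI7 −0.06 with 0, where 12.4%, 3.19% and 2.59% of all genes had such a p.

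In classes other than luminal epithelium, edgeR called no member between G90 and the rest. Members tested are those that passed the filter on low counts, which a gene can do through the glands of 1 stage alone. The medians and counts of a class can thus lean on members kept for their G90 level, and this was not tested. Fibroblasts, with 37 members tested, had a median log2 value of 1.67 and 17 members with an unadjusted p under 0.05, all of them higher at G90, where 5.95% of 13287 genes had such a p in either direction and 0.0151% were called higher. DESeq2 called 2 members and 0.263% of all genes. CENPF was at 68.3 and 117 CPM (G90) and between 1.27 (PI2 sow 1) and 51.3 (L20 sow 1) elsewhere. Endothelial nuclei had a median of 1.08 over 40 members and 12 with an unadjusted p under 0.05, where 5.12% of all genes had one and 0.0151% were called higher. DESeq2 called 1 member and 0.113% of all genes. There TOP2A was at 37.7 and 44.8 CPM (G90), but at 47.1 and 70.6 (L0), and between 1.38 and 30.8 at the other stages. Myoepithelial nuclei, with 14 members tested, had 8 at an unadjusted p under 0.05 and a median of 2.13, where 6.41% of all genes had such a p and 0% were called higher. T and NK nuclei had 2 of 24 with a median of 0.82, where 3.13% of all genes had such a p, 0.134% were called higher and 0.0122% lower.

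Macrophages gave a median log2 value of 0.19 over the 33 members tested, and none had an unadjusted p under 0.05, where 5.55% of all genes had one and 0.0309% were called higher. TOP2A was at 66.5 and 93 CPM (G90), 142 and 211 (L0), 148 and 37.7 (L20), 43.1 and 64.6 (PI2), and 43.4 and 32.2 (PI7). CENPF was at 128 and 236 (G90), 117 and 211 (L0), 196 and 44.9 (L20), 39.2 and 117 (PI2), and 45.5 and 32.2 (PI7). For TOP2A the G90 glands sat within the range of the other stages, while for CENPF G90 sow 2 was the highest gland, ahead of L0 sow 2, and G90 sow 1 lay within the range.

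Whether the G90 difference itself was unequal between classes was tested as luminal minus another class. Against macrophages, 5 members were called, TOP2A, BUB1, BUB1B, CDC20 and UBE2C, all with the greater G90 difference in luminal nuclei, where 0.095% of 16841 genes were called that way. CDC20 and UBE2C did not pass the filter on low counts within macrophages alone, so their calls rest on few macrophage UMIs. The median over the 45 members was 2.07, and not all of these passed that filter in macrophages. Against fibroblasts and endothelial nuclei edgeR called 0 members (background 0.0653% and 0.137%), with 14 and 21 at an unadjusted p under 0.05, as had 9.20% and 11.9% of all genes, and medians of 0.94 and 1.29. The count against macrophages was 0 without G90 sow 2, 1 without G90 sow 1 and between 4 and 12 without any other gland, with 12 without L0 sow 2.

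Levels between classes were compared in the same glands, each class against the mean of the others with the sow as a block. In macrophages 26 of 44 members tested were higher (background 12.4%), with a median log2 value of 1.35 and all 44 positive. All 7 spindle genes, 6 of 7 kinetochore genes and all 3 cytokinesis genes were called, but only 4 of 11 genes of replication. TOP2A had a log2 fold change of 2.23 (SE 0.40, edgeR adjusted p = 4.59e-06), with a mean of 88.1 CPM ± 59.9 (SD, n = 10) in macrophages against 35.2 ± 58.4 in luminal nuclei, 26.4 ± 23.4 in endothelial nuclei and 16.1 ± 19.3 in fibroblasts. CENPF had 1.72 (SE 0.35), with a mean of 117 ± 76.6 in macrophages and 55.6 ± 97.5 in luminal nuclei. E2F8 had the greatest log2 fold change, 2.82 (SE 0.48), ahead of TTK and UBE2C at 2.46 each. The mean of the other classes includes B cells, of which 2 glands, L20 sow 2 and PI7 sow 1, had at least 20 nuclei. In these B cell nuclei E2F8, TTK and UBE2C had 0 UMIs, with B cell log2 values of −7.41 (SE 6.65), −7.33 (SE 7.90) and −5.97 (SE 9.83). The called replication genes MCM4 and MCM5 had 0 UMIs there too, with B cell log2 values of −7.21 (SE 7.02) and −6.53 (SE 6.85). The size and order of the macrophage fold changes of these genes thus lean on a class without counts of them. The mean set against TOP2A also includes adipocytes, whose low level is given below. The number called stayed between 22 and 27 on leaving out any single gland.

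T and NK nuclei had 10 of 44 members higher (background 11%) and a median of 0.94. TYMS led with a log2 fold change of 3.06 (SE 0.40, edgeR adjusted p = 1.96e-09), followed by MCM4 and GINS2, parts of the replicative helicase, at 2.24 and 2.22. TYMS, MCM4 and GINS2 also had 0 UMIs in the B cell nuclei of L20 sow 2 and PI7 sow 1. The size and order of their fold changes lean on that class too. BRIP1, CDK1, KIF11, BUB1B, KIF20B, KIF15 and POLA1 were the others. POLA1 was at 130 CPM ± 31.3 (SD, n = 10) in T and NK nuclei, between 89.2 (L0 sow 2) and 181 (L20 sow 2), and at 67.6 ± 25.4 in luminal nuclei. Of the 26 members called in macrophages and the 10 in T and NK nuclei, 6 were shared, which is 6 of 26 and 6 of 10. The latter is close to the 26 of 44 members called in macrophages, so the overlap is no more than these counts alone would give. The T and NK count was 5 without L0 sow 1 and 6 without L20 sow 2.

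Luminal nuclei had 1 member higher than the mean of the other classes, BIRC5 (log2 fold change 1.48, edgeR adjusted p = 0.0382, background 12.2%), and endothelial nuclei 1, AURKB (1.54, edgeR adjusted p = 0.0388, background 11.8%). BIRC5 and AURKB also had 0 UMIs in the B cell nuclei of L20 sow 2 and PI7 sow 1. The size of these fold changes thus leans on that class too. In mural nuclei BIRC5 had a log2 value of 1.54 (SE 1.05) without a call. AURKB averaged 22.1 CPM ± 11.9 in endothelial nuclei, but 25.4 ± 14.0 in the few mural nuclei and 24.7 ± 19.5 in macrophages. The other classes had 0 calls by edgeR, against a background of 8.12% (myoepithelial), 7.02% (mural), 10.6% (fibroblast), 0.719% (B cell) and 8.41% (adipocyte). Adipocytes had the lowest median, −0.85, with 13 members at an unadjusted p under 0.05 (29.6% of all genes), and TOP2A there averaged 0.884 CPM ± 1.53 (SD, n = 3 glands with at least 20 such nuclei). PCNA, the sliding clamp, and EXO1 were the 2 members with their highest class mean in adipocytes, PCNA at 44.8 ± 29.1 against 12.7 ± 3.77 in luminal nuclei and with no call.

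**Figure D3:**
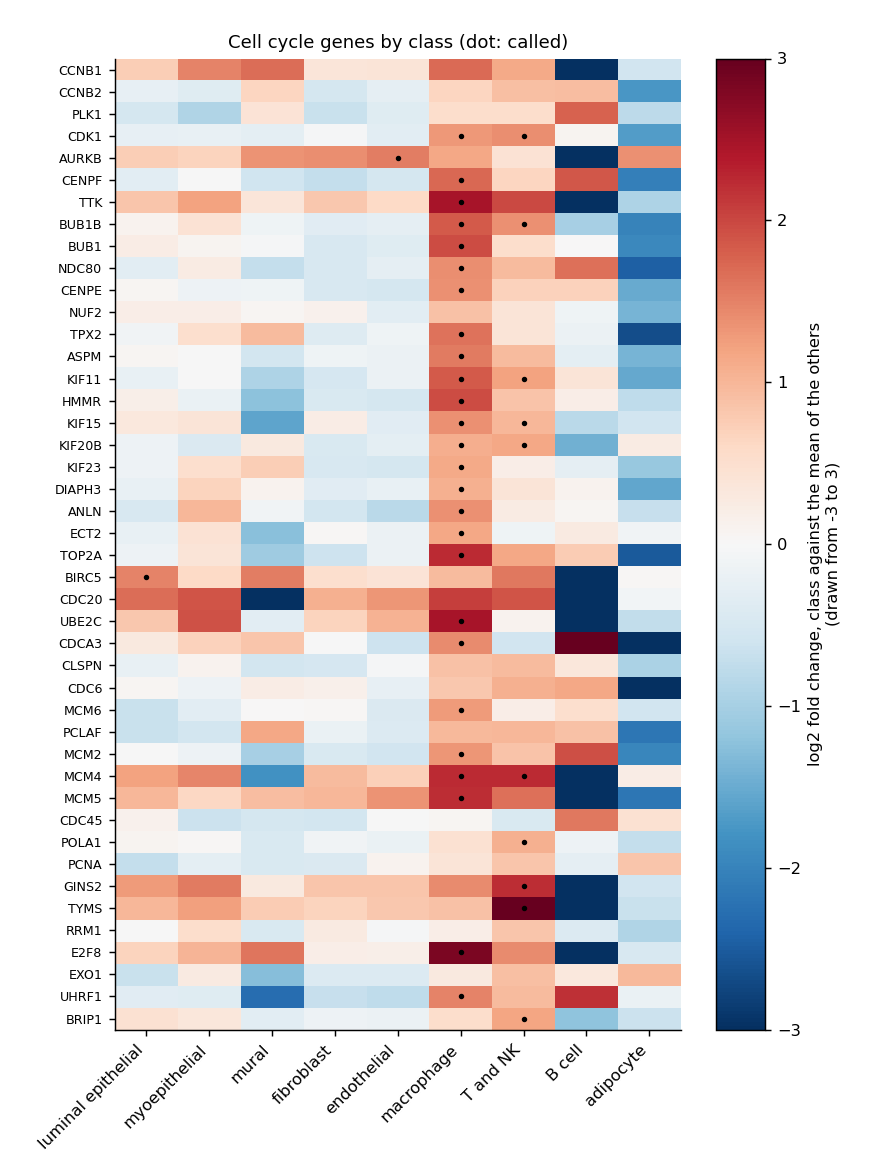
Log2 fold change of each cell cycle gene (rows) in each class against the mean of the other classes (columns), drawn from −3 to 3, with a dot where the gene was called. Dots fill the macrophage column, with 26 of 44 members, and 10 rows of the T and NK column, and the adipocyte column is mostly blue.

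The members also differed in how closely they kept to the same nuclei. For each gene, the part of its UMIs that lay in nuclei with at least 5 other members was counted over all glands, and these nuclei were 3.97% to 4.50% of the total. TOP2A had 84.3% of its UMIs there, TPX2 80.0%, KIF11 78.5%, ASPM 78.1%, CENPF 77.0% and E2F8 75.6%. At the other end stood RRM1 with 16.1%, PCNA with 16.4%, POLA1 with 16.5%, CDC45 with 21.2% and GINS2 with 24.0%. The median was 67.5% over the 28 G2/M members and 35% over the 17 S phase members. The list holds more G2/M than S phase members, so at least 5 other members are reached more easily in nuclei that use G2/M genes. The medians therefore cannot tell whether the phases differ in how closely their genes keep together. Most UMIs of genes such as RRM1 and POLA1 came from nuclei in which fewer than 5 other members were seen. Counts per nucleus are sparse, and these shares describe co-detection at this depth. UMIs were pooled over the glands, and G90 sow 2 held 9423 of the 15113 TOP2A UMIs and 16177 of the 23774 CENPF UMIs. The pooled shares of these genes thus lean on that gland.

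By gland, 92.8% of TOP2A UMIs in G90 sow 2 and 83.4% in G90 sow 1 lay in such nuclei. The share was 74.7% and 61.6% (L0), 76.0% and 49.3% (L20), 64.5% and 32.9% (PI2), and 44.5% and 66% (PI7). For CENPF it was 81.7% and 81.4% (G90), and 19.2% (PI2 sow 2) to 63.4% (L20 sow 1) elsewhere. For RRM1 it was 27.2% and 38.4% (G90), and 0.731% (L0 sow 2) to 13.7% (L20 sow 1) elsewhere. The G90 glands were the highest for each of these genes, and they also had the highest median UMIs per nucleus, at 2219 and 2496. After thinning, nuclei with at least 5 members made up 0.151% to 10.1% of a gland. The pool of such nuclei was thus unequal between glands, and its part in these shares by gland was not tested.

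**Figure D4:**
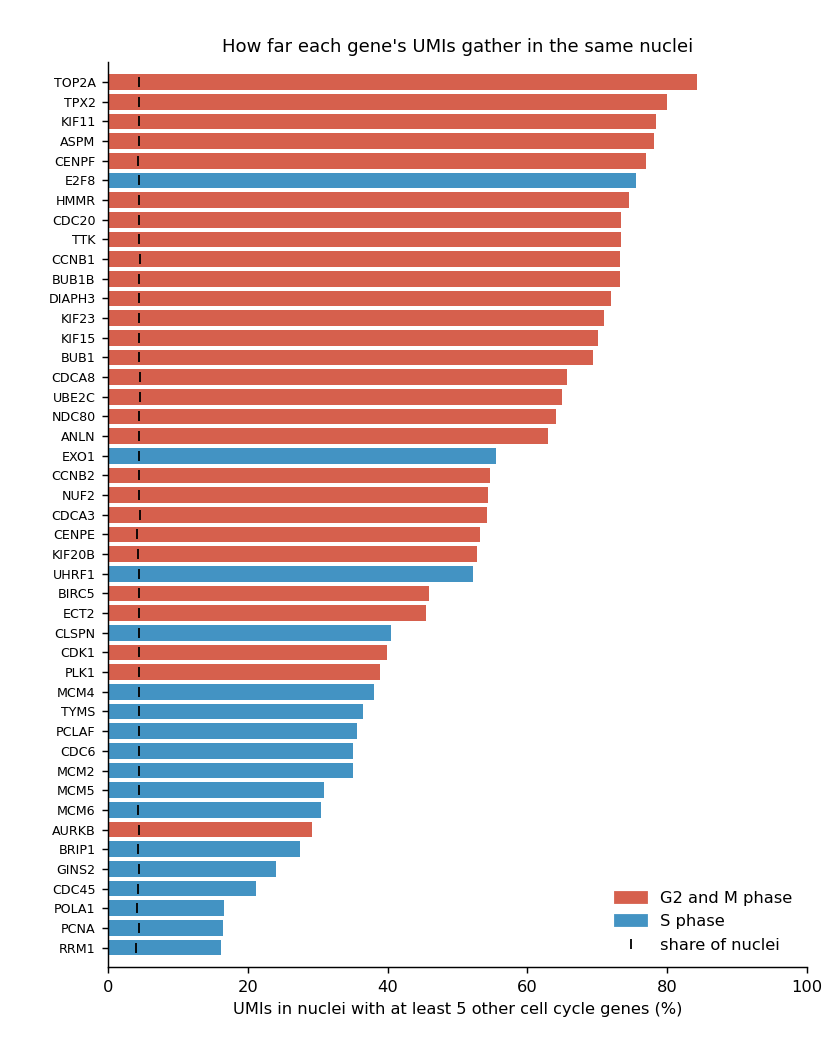
Percent of the UMIs of each cell cycle gene that lay in nuclei with at least 5 other members (x axis), by gene and phase, pooled over the 10 glands, with a tick for the percent of nuclei these are. G2/M members reach 84.3% (TOP2A), while S phase members go down to 16.1% (RRM1), with E2F8 the highest of them at 75.6%.

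Nuclei with at least 3 members were split by whether they held more S phase or more G2/M members. Over all classes, more S phase members were held by 34.7% and 20.9% of them at G90, 26.1% and 45.6% (L0), 34.1% and 41.0% (L20), 35.2% and 61.7% (PI2), and 41.3% and 45.7% (PI7). G90 sow 2 had the lowest share, and its positive nuclei held a mean of 5.60 G2/M members against 2.18 in PI2 sow 2. In T and NK nuclei of G90 sow 1 and PI7 sow 1 the share was 51.6% and 52.5%, in macrophages of the same glands 25% and 30.4%. The list holds more G2/M than S phase members, so these shares compare libraries and do not give lengths of the phases.

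Sections and milk were read with counting intervals, which cover counting error only, since each stage had 1 library. A spot of a section covers several cells. The G90 section had 749 member CPM and the PI2 section 227, and the 95% intervals lay higher in G90 for 43 of 45 members, lower for 0 and overlapped for 2. Of all 14113 genes with at least 10 UMIs over both sections, 37.7% lay higher in G90 and 30.3% lower. The median ratio was 6.04 for the members and 1.07 for these genes. DIAPH3 stood at 149 UMIs in the G90 section and 2 in the PI2 section. TOP2A was at 23.8 CPM (22.4 to 25.3) against 1.45 (0.949 to 2.13), CENPF at 10.7 against 0.727 and KIF11 differed by a ratio of 19.4. RRM1, at 73.4 CPM against 60.8, and AURKB, at 12.5 against 8.22, had ratios of only 1.21 and 1.52. TYMS had 12 and 8 UMIs, too few to show a difference. Of spots thinned to 1000 UMIs, 3.43% (exact interval 2.93% to 4.0%) held at least 3 members in the G90 section and 0.291% (0.107% to 0.633%) in the PI2 section.

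In milk the 2 libraries were closer. Colostrum had 307 member CPM and mature milk 259, with intervals higher in colostrum for 19 members, lower for 4 and overlapping for 22, where 31.1% of 18970 genes lay higher and 30.4% lower. The median ratio was 1.24 for the members and 1.096 for all these genes. DIAPH3 (ratio 3.62), CDC20 (2.5), ASPM (2.27), CDCA8 (2.24) and TOP2A (2.23, at 12 CPM against 5.38) were further apart, whereas PCNA was at 36.9 CPM in colostrum and 45 in mature milk, TYMS at 7.36 and 9.78 and MCM5 had a ratio of 0.641. Of milk cells thinned to 1000 UMIs, 1.13% held at least 3 members in colostrum and 0.366% in mature milk. Among luminal milk cells the share was 3.65% (exact interval 3.02% to 4.37%, median 15974 UMIs per cell before thinning) in colostrum and 0.249% (0.0514% to 0.726%, median 2544) in mature milk. Macrophages of milk had 0.941% and 0.851%, and T and NK cells 3.20% and 1.32%, with intervals that overlapped.

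Neutrophils, which do not divide once released from the marrow, were the largest class in milk and serve as a background. Only 0.0289% of 6921 neutrophils of colostrum and 0.0780% of 3847 of mature milk held at least 3 members, at a median of 1189.5 and 1131.5 UMIs. In colostrum the luminal, the macrophage and the T and NK shares lay above the neutrophil interval of 0.0035% to 0.104%. In mature milk the macrophage, the T and NK and, only just, the luminal share lay above the neutrophil interval of 0.0161% to 0.228%. The luminal interval of mature milk overlapped that of neutrophils, so the luminal share there could not be told from background at this depth. For macrophages and T and NK cells only the shares, not their intervals, were set against the neutrophil interval here.

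**Figure D5:**
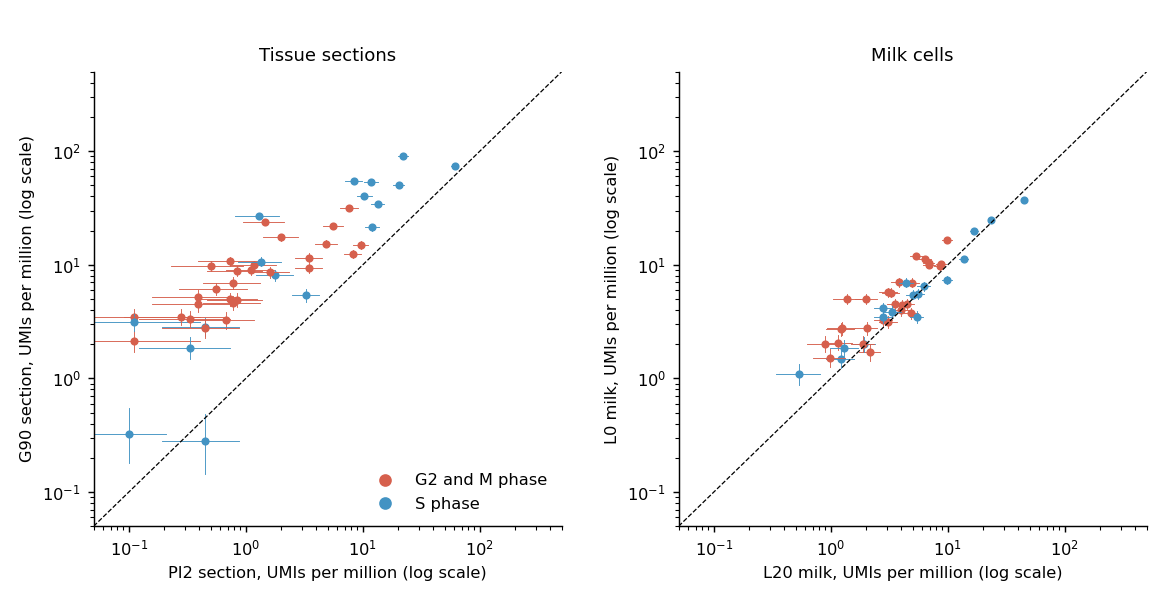
CPM of each cell cycle gene on log axes with 95% counting intervals, the G90 section (y axis) against the PI2 section (x axis) and colostrum (y axis) against mature milk (x axis), with the dashed line at equal levels and BRIP1, which had 0 UMIs in the PI2 section, drawn near the left edge. Section points lie above the line except TYMS, with a median ratio of 6.04, and milk points lie close to it, with ratios from 0.641 (MCM5) to 3.62 (DIAPH3).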

How the data were processed

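Nuclei of 10 mammary glands, cells of 2 milk samples and spots of 2 sections were used. The authors deposited UMI counts per gene and barcode, without normalization or removal of free RNA or doublets, on Sscrofa11.1. For the sections the labels name Space Ranger 1.2.0 and Seurat 4.3.0. Barcodes under 300 genes or over 25% mitochondrial UMIs were dropped, which kept 126833 of 128233 nuclei. Classes came from marker genes by the rule stated above, and clusters were not called. A nucleus with at least 3 members after thinning to 1000 UMIs counted as positive, and a class entered a gland's share with at least 20 nuclei. Shares have exact binomial intervals at 95%.

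Sums per gland and class went into the quasi-likelihood test of edgeR 4.0.16 with TMM factors and filterByExpr, with all 5 stages in 1 model, with 5 residual degrees of freedom, and classes in 1 fit with the sow as a block. Replicates were separate sows. Shares were compared by exact two-sided permutation tests with Benjamini-Hochberg adjustment over classes. The members, the other cell cycle lists and the markers were chosen with earlier results of these data known. Members described in every gland were those of most UMIs in each role, 3 in roles of 7 or more members and 2 in the others, beside all called members and the 5 called genes of smallest p of the other lists. Alternatives were DESeq2 1.42.0, no filter on low counts, the replicate number as a block or no sow block, only the 2 stages compared, stricter gates and filters, other thinning, other least numbers of members and each gland left out. On simulated luminal counts with a biological coefficient of variation of 0.5 (0.505 in the data), 18.9% of genes changed by a log2 of 1.5 and 86.4% of those changed by 2.5 were recovered. Promoters come from RefSeq of Sscrofa11.1. Computations used Python 3.11.15, scanpy 1.11.5 and R 4.3.3.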

Additional observations from a re-analysis of the deposited data

Results flagged for a closer look

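For 5 members the difference between G90 and the other stages was unequal in luminal and macrophage nuclei by a test of the difference itself, an interaction term in edgeR. Each value is the luminal minus the macrophage log2 fold change in a joint fit with the sow as a block. The log2 fold changes given beside it come from separate fits of each class, so they do not subtract exactly to that value. TOP2A had 3.74 (SE 0.73, edgeR adjusted p = 0.0146), with a log2 fold change of 4.0 in luminal and 0.11 in macrophage nuclei. BUB1B had 3.06 (SE 0.60, edgeR adjusted p = 0.0146), beside 3.20 and −0.12, and BUB1 had 2.81 (SE 0.66, edgeR adjusted p = 0.0448), beside 2.79 and −0.18. In macrophages BUB1B was at 52.4 and 43.2 CPM (G90) and between 27.4 (PI2 sow 1) and 136 (L0 sow 2) elsewhere, so that the groups overlapped.

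CDC20 had 3.72 (SE 0.80, edgeR adjusted p = 0.0292) and UBE2C 4.64 (SE 0.93, edgeR adjusted p = 0.0172). Both rest on few macrophage UMIs, 47 for CDC20 and 102 for UBE2C over the 10 glands, and UBE2C had 0 UMIs in macrophages of G90 sow 1, so neither passed the filter on low counts within macrophages alone. Their highest macrophage level was in L20 sow 1, at 24.9 and 26.6 CPM. On leaving out each gland the difference ran from 3.25 to 10.6 for UBE2C and from 3.33 to 4.17 for TOP2A.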

How the results depend on the processing

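The 19 luminal calls kept their direction in all 16 alternatives, and each was called in 8 to 15 of them. The 26 macrophage calls kept theirs in all 14, called in 4 to 14. Of G90 against the rest, DESeq2 called 23 members over all nuclei, 34 in luminal nuclei, 2 in fibroblasts and 1 in endothelial nuclei, and no filter on low counts gave 21 over all nuclei, 30 in luminal, 6 in myoepithelial, 8 in fibroblast and 3 in endothelial nuclei. From G90 to L0, DESeq2 called 12 over all nuclei and 26 in luminal nuclei, the 2 stages alone 12 and 28, and no filter 11 in luminal nuclei. No filter also gave 1 from L20 to PI2 in myoepithelial nuclei, 1 in fibroblasts and 1 from L0 to L20 in endothelial nuclei. The stricter gate gave 1 in endothelial nuclei at G90. The cause of these shifts was not tested. Counts in this section with no share of all genes here or above show only how the calls moved, and are not results about the members.

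Same-numbered sows did not deviate together (correlations of −0.522 to 0.388 over 10 pairs of stages), so the numbers do not pair the samples. With the replicate number as a block, 0 members were called over all nuclei and 13 in luminal nuclei.

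For class against class, members called were 2 (no sow block) and 3 (stricter gate) in luminal nuclei, 1 in myoepithelial nuclei with no sow block, DESeq2, the stricter gate or the top 5% doublet scores removed, 2 in mural nuclei (stricter gate), 2 (DESeq2) and 1 (stricter gate) in fibroblasts, 0 (no sow block or doublet scores removed) and 2 (DESeq2) in endothelial nuclei, and 4 (DESeq2) and 2 (stricter gate) in adipocytes. No share of all genes is given for these alternatives, so they too show only how the calls moved.

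The share of positive nuclei in macrophages minus luminal nuclei was 3.47 points at 5 members, 2.21 not thinned, 4.97 with a filter of 500 genes and 5% mitochondrial UMIs and 4.87 with the stricter gate. That of T and NK nuclei was 0.904, −2.45, 3.27 and 4.69 in the same order, 10.5 at 2000 UMIs and 4.51 with doublet scores removed. Fibroblasts minus luminal nuclei gave −2.91 at 2000 UMIs and −5.89 not thinned, endothelial nuclei −7.11 and myoepithelial nuclei −2.59 not thinned. With at least 2 members, at least 5, and not thinned, spots or cells counted were 15.1%, 0.129% and 69.3% in the G90 section, 1.70%, 0% and 22.6% in the PI2 section, 2.32%, 0.515% and 5.83% in colostrum, and 1.35%, 0.150% and 2.58% in mature milk.

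On leaving out each gland, members called at G90 ranged from 0 to 10 over all nuclei, 0 to 22 in luminal nuclei and 0 to 1 in fibroblasts. Class calls ranged from 0 to 4 (luminal), 0 to 2 (myoepithelial), 0 to 1 (endothelial), 22 to 27 (macrophage), 5 to 10 (T and NK) and 0 to 1 (adipocyte), and luminal minus macrophage calls from 0 to 12, minus endothelial from 0 to 1. G90 minus rest shares ranged from 8.74 to 13.4 points over all nuclei, 10.4 to 14.3 in luminal, 0.742 to 26.8 in myoepithelial, 2.89 to 5.17 in fibroblast, 2.65 to 3.36 in endothelial, 6.19 to 10.5 in T and NK and −1.21 to 5.07 in macrophage nuclei, the last negative without G90 sow 2. Class minus luminal shares ranged from 5.63 to 7.91 in macrophages, 3.25 to 4.87 in T and NK, 1.22 to 3.67 in myoepithelial, −2.06 to −0.856 in mural, −1.74 to −0.202 in fibroblast and −1.79 to −0.173 in endothelial nuclei. A lone gland left at a stage was assumed to vary like the others. The removal of doublets called by Scrublet was not run, since its threshold marked almost no nuclei in 9 of 10 glands, and the top 5% of its scores in each gland were removed in its place, a choice made after seeing the data.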

Other observations

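CENPE was also read in nuclei that held UMIs of at most 1 other member. In luminal nuclei of this kind it was at 28.2 and 150 CPM (G90), 18.3 and 130 (L0), 16.6 and 9.42 (L20), 51.6 and 22.6 (PI2), and 105 and 39.3 (PI7). In nuclei of the other classes, pooled, it was at 28.2 and 78.2 (G90), 26.4 and 111 (L0), 18.5 and 14.0 (L20), 46.5 and 22.8 (PI2), and 92.5 and 45.9 (PI7). G90 sow 2, L0 sow 2 and PI7 sow 1 were thus the high glands in luminal nuclei and in the others alike, and the sows of a stage differed. For TOP2A the luminal levels in such nuclei were 14.6 and 12.3 CPM (G90), 4.17 and 2.15 (L0), 4.44 and 8.83 (L20), 1.59 and 3.20 (PI2), and 12.9 and 0.834 (PI7). PI7 sow 1 thus lay between the G90 glands.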
